A study of Mus musculus with 3 samples.

Results

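Paired sites are CEBPG peaks that had the centre of an ATF4 peak within 250 bp of their own centre and lay more than 1 kb outside every protein-coding gene. There were 215 of them among 25419 CEBPG peaks. They were chosen from the positions of peaks called in both libraries of wild-type C57BL/6 mouse embryonic fibroblasts, primary cells isolated at E13.5. After 24 hours on plates they spent 3 hours in AAD (amino acid deprivation) medium, so both libraries come from starved cells and no fed cells are compared here. CEBPG was precipitated with an antiserum to its C-terminus and ATF4 with a commercial antibody, 1 library each, and a GFP library is not analysed here. With 1 library per antibody, no value carries an error between cultures, and no test between conditions is possible. All intervals are exact 95% binomial intervals that cover counting error only.

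ATF4 is a basic leucine zipper (bZIP) transcription factor whose translation increases when amino acids run short and eIF2 is phosphorylated. It binds DNA as a dimer, often with a C/EBP protein, at composite elements that join a C/EBP and an ATF site. CEBPG, a short protein of the C/EBP family, pairs with ATF4 and lacks a strong activation domain of its own. Sites outside genes can act as distal enhancers, but neither the activity of these sites nor the genes they act on was measured.

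The sequence under 1 paired site could be read, because this site covers the start of a long noncoding RNA gene, Gm36393. It lies 2.80 kb from Dhrs9, a short-chain dehydrogenase gene, and its peaks scored 429.03 for CEBPG and 137.08 for ATF4. Both peaks (CEBPG 69405706 to 69406062, ATF4 69405732 to 69406051 on chromosome 2) contain the whole RefSeq promoter window chr2:69405733-69406032 (GRCm38.p6, minus strand). Of the 3 windows listed for this gene it is the one that lies wholly inside both peaks. It is shown for the composite, AP-1 and C/EBP motif letters near their centres. Capitals mark a composite match and a C/EBP match, and the AP-1 match between them is in lower case.
Gm36393 promoter window: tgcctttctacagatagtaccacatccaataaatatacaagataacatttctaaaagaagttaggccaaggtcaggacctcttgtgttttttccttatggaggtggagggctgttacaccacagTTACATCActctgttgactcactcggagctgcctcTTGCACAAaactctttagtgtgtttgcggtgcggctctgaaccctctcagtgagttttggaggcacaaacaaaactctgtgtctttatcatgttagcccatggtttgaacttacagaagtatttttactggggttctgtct

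The first match, TTACATCA at bases 125 to 132 of the window, is TGATGNAA read on the other strand, and its middle lies 13.0 bp from the ATF4 centre and 20.5 bp from the CEBPG centre. The second, TTGCACAA at bases 160 to 167, matches TTGCNNAA and lies 14.5 bp from the CEBPG centre. Between them, at bases 139 to 145, TGACTCA matches the AP-1 motif TGANTCA. Its middle is offset by -0.5 bp from the ATF4 centre and 7.0 bp from the CEBPG centre, nearer to both than either capitalised match. No match to TTGCGCAA, TGACGTCA or CACGTG was present. Both strands were searched in 32817 promoter windows of the same length. TGATGNAA occurred in 3.97% of them, TTGCNNAA in 10.8% and TGANTCA in 7.81%. A match is a description of the letters and not evidence of binding. The only other paired site with a promoter window under its CEBPG peak was the one next to Gm42048. There, 7 bp of the CEBPG peak reached into the window of Gm26812, a long noncoding RNA gene, and the window held none of the motifs searched.

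The CEBPG scores of the 215 sites ran from 40.19 to 3205.56, with quartiles of 233.05 and 1770.9 and a median of 775.61 (621.01 to 1072.23). The score is the authors' own value for each peak. Scores were 1000 or more at 99 sites (46.0%) and 500 or more at 131 (60.9%), while 40 sites scored under 100. The median of the 13979 CEBPG peaks away from genes without ATF4 was 46.84, and that of the 199 CEBPG peaks with ATF4 in or within 1 kb of genes was 866.22. Since an ATF4 peak was part of the choice, these values describe the sites and were not tested.

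**Figure D1:**
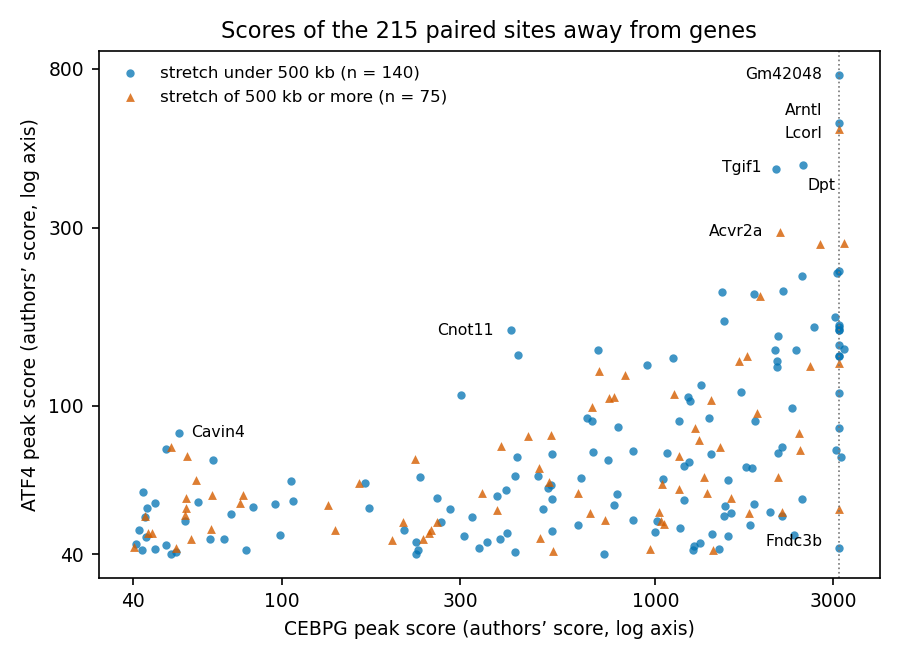
Scores of the 215 paired sites, with the CEBPG score on the horizontal and the ATF4 score on the vertical log axis, 1 point per site. Triangles are the 75 sites in stretches of 500 kb or more between genes, circles the other 140, and the dotted line marks the tied CEBPG score of 3100. The highest ATF4 scores, at Gm42048, Arntl and Lcorl, all stand on that line.

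A share of 1.51% of CEBPG peaks away from genes had an ATF4 peak (215 of 14194, interval 1.32 to 1.73%), against 1.77% of CEBPG peaks in or within 1 kb of genes (1.54 to 2.03%) and 1.63% of all. Away from genes the share was 0.171% for CEBPG scores under 50, 0.628% from 50 to 100, 1.27% from 100 to 200 and 7.45% from 200 to 500. It was 18.8% (13.2 to 25.5%) from 500 to 1000 and 63.9% (55.8 to 71.4%) at 1000 or more. At genes the first 4 classes gave 0.153%, 0.254%, 1.33% and 6.24%, and the last 2 gave 27.2% (21.1 to 34%) and 61% (52.4 to 69.1%). In every class the intervals of the sites away from genes and at genes overlapped. Of the 20 CEBPG peaks away from genes at or above the tied score of 3100, 19 were paired (95%, 75.1 to 99.9%). Over the whole list 42 CEBPG peaks scored this high, of which 21 were pairs in or within 1 kb of genes. The depth of the libraries is unknown, so a CEBPG peak without an ATF4 peak cannot be taken as free of ATF4.

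**Figure D2:**
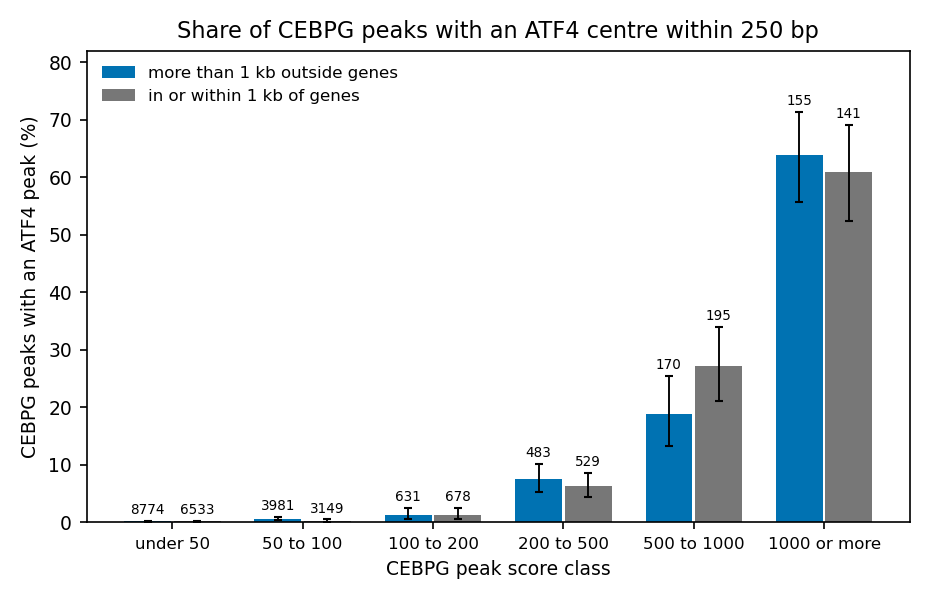
Percent of CEBPG peaks (vertical axis) with an ATF4 centre within 250 bp, by class of CEBPG score, for peaks more than 1 kb outside genes (blue) and in or within 1 kb of genes (grey). Error bars are exact 95% binomial intervals, the number above each bar is the number of CEBPG peaks, and the share reaches 63.9% and 61% in the top class.

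ATF4 scores at the sites ran from 40.15 to 771.89, lower and closer together as numbers than the CEBPG scores. Their quartiles were 48.78 and 97.24 and their median 61.44 (56.47 to 68.18). At the 199 pairs in or near genes the median was 67.09. The 2 lists come from different antibodies and libraries, of unknown depth and score scale, so binding strength cannot be compared between them. Of the 135 ATF4 peaks in the whole list with a score of 100 or more, 52 (38.5%) belonged to paired sites away from genes, as did 5 of the 10 highest. Of all 2642 ATF4 peaks, whatever their score, 213 did. Across the 215 sites, which share the same 2 libraries and 1 peak caller, the scores had a Spearman rho of 0.57, given as a description. Among the 99 sites with a CEBPG score of 1000 or more, ATF4 scores ranged from 41.17 to 771.89, and 14 were under 50. The site nearest Fndc3b, a fibronectin type III domain gene, held the tied CEBPG value of 3100 while its ATF4 peak scored 41.61. Conversely, the site 2.0 kb from Cnot11, a subunit of the CCR4-NOT deadenylase complex, reached 159.73 for ATF4 but 409.8 for CEBPG.

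Of the paired sites, 3 had a CEBPG score above 3100 and 16 were tied at 3100. The value 3100 is therefore not the maximum of the score. No source used here says why 16 sites share it, so no order can be read among the tied sites. The site with the highest score lay 6.99 kb from Serpinh1, the collagen chaperone gene, on chromosome 7 (99359839 to 99360625), in a stretch of 28.2 kb between Serpinh1 and Gdpd5. It scored 3205.56 for CEBPG and 142.05 for ATF4. The second had as its nearest gene Klf4, which encodes a pluripotency factor, 198 kb away at chromosome 4, 55730095 to 55730920, and 1009 kb from the gene on its other side, Actl7b (3198.58 and 274.02). The Vldlr site (chromosome 19, 27260472 to 27261085) was 6.55 kb from this lipoprotein receptor gene. It overlapped the long noncoding gene Gm35438 and had an ATF4 score of 72.89. Its peak centres were 5 bp apart.

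Of the 16 tied sites, the 7 with the highest ATF4 scores are described next, which completes 10. Gm42048, a predicted gene, was the nearest to the site with the highest ATF4 score of the set (771.89, chromosome 8, 121850722 to 121851621). The gene on its other side, 30.0 kb away, was Slc7a5, the light chain of a transporter of large neutral amino acids. The Arntl site (chromosome 7, 113139771 to 113140538, ATF4 score 574) lay 38.3 kb from this core clock gene with centres 2 bp apart. The Lcorl site (551.86) stood 17.9 kb from that gene at the edge of a 2.12 Mb stretch that ends at Slit2. At Rcc2, a regulator of chromosome condensation, the site was 1.74 kb from the gene (229.83).

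Sesn2, which encodes a leucine-sensing inhibitor of mTORC1, had its site 3.64 kb outside the gene (164.36). The site nearest 1600014C23Rik (163.08) lay in the 283 kb between that gene and Vegfa, the angiogenic growth factor gene, 143 kb from Vegfa. Creb3l1, a bZIP factor anchored in the endoplasmic reticulum membrane, was 31.5 kb from the last of the 10 (160.25). Of these 10 nearest genes, 2 (Vldlr and Sesn2) also held a CEBPG and ATF4 pair inside or within 1 kb of the gene. Over all 215 sites this was so at 8 (3.72%), against 2.21% of the CEBPG peaks away from genes without ATF4 and 3.09% of those with a score of 500 or more.

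Of the 10 sites with the highest ATF4 scores, 5 have not been described yet. How many of them appear above depends in part on the order used among the tied sites. The one at Dpt, a dermatopontin gene of the extracellular matrix, lay 165 kb from it (ATF4 442.23, CEBPG 2483.45, chromosome 1, 164631643 to 164632214). The site 7.16 kb from Tgif1, a homeobox repressor in TGF-beta signalling, scored 430.44 and 2110.19. The site nearest Acvr2a, an activin receptor gene 294 kb away, scored 292.94 and 2159.41, and its other flanking gene was Zeb2, 3.40 Mb away. Those nearest Ube2v2 (256 kb, ATF4 271.14) and Sh2d6 (4.82 kb, 227.3) completed the first 10. Over the 10 sites highest in ATF4 score, the nearest gene thus lay between 1.74 kb (Rcc2) and 294 kb (Acvr2a) away.

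The 5 lowest CEBPG scores, 40.19 to 42.51, were at sites nearest Id4, Cdc42ep3, Hrh4, Zfp770 and Tle3, where ATF4 scores were 41.82, 42.65, 46.64, 41.19 and 58.98. The lowest scores deposited were 40 for CEBPG and 40.02 for ATF4, and the ATF4 peak of the Tle3 pair was near the median of all paired sites. Of the 40 sites with a CEBPG score under 100, 30 had peaks that overlapped, and the median distance between centres was 75.8 bp (33 to 139). Among the 175 others every pair overlapped. Wide peaks whose centres lie within 250 bp can hardly fail to overlap, and the median CEBPG width was 134.5 bp for scores under 100 and 703 bp at 1000 or more. The median offset was 48 bp (25 to 65.5) for scores of 100 to 500, 34.8 bp (17.5 to 53) from 500 to 1000 and 44 bp (33.5 to 58.5) at 1000 or more, and these intervals overlapped that of the weakest sites.

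Over all 215 sites the centres lay a median of 46 bp apart (37 to 53), 116 were within 50 bp and 176 (81.9%) within 100 bp. The rule caps this distance at 250 bp. Just inside that limit were sites nearest Tle4 (239.5 bp), Zc3h12c (238 bp) and Gm46935 (233.5 bp). Their CEBPG scores were 132.9, 55.07 and 50.51. Just outside it were CEBPG peaks nearest Arglu1 (261.5 bp, score 86.83), Mbd2 (271 bp, 41.75) and Tbl1xr1 (273 bp, 46.42). The last 2 had as their nearest ATF4 peak one already paired with a stronger CEBPG peak (704.41 and 197.53).

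CEBPG peaks were wide at these sites. Their widths ran from 56 to 984 bp with a median of 576 bp (531 to 611), against 130 bp (129 to 130) for CEBPG peaks away from genes without ATF4. Width followed the score. Unpaired CEBPG peaks away from genes with a score of 500 or more had a median of 574 bp (554 to 595, n = 194), and paired sites of that score 681 bp (648 to 701, n = 131). The latter also had higher scores (medians 1503.93 and 778.24), and the part this plays in the width was not tested. ATF4 peaks at the sites were narrower, from 62 to 688 bp with a median of 239 bp. They come from another antibody and library, so these widths do not compare the extent of binding. In 186 of the 215 pairs the CEBPG peak was the wider, and in 166 (77.2%) it contained the whole ATF4 peak. The 5 widest CEBPG peaks were those nearest Ube2v2 (984 bp), Fndc3b (957 bp), Otogl (915 bp), Gm42048 (900 bp) and Rtl3 (890 bp). None exceeded 1 kb.

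**Figure D3:**
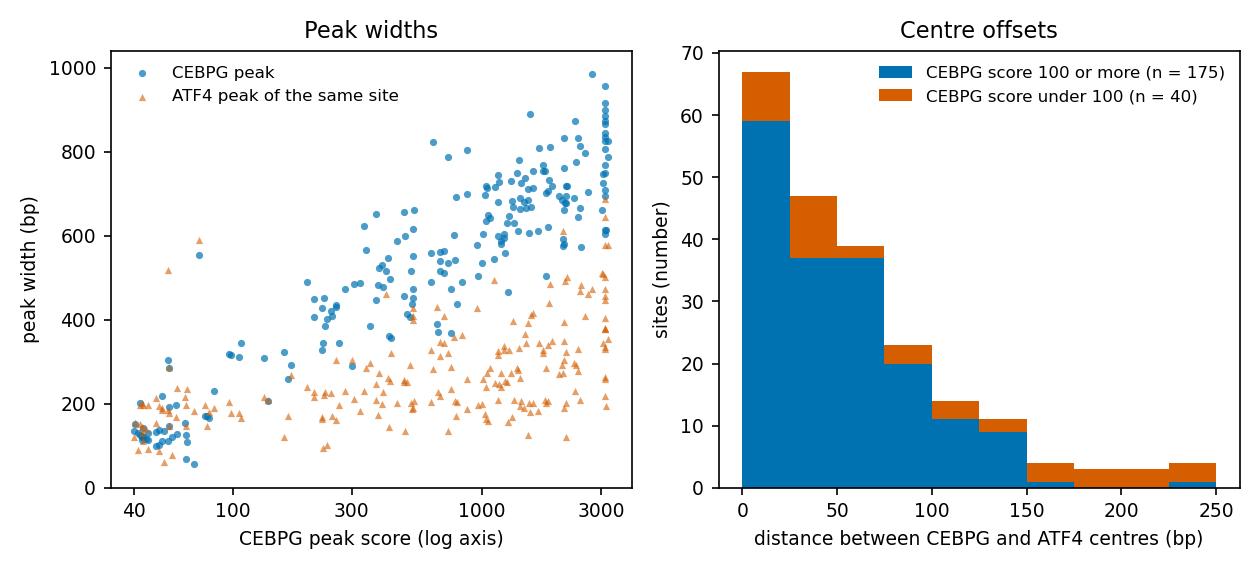
Left, width in bp of the CEBPG peak (circles) and the ATF4 peak (triangles) of each paired site against its CEBPG score on a log axis. Right, number of sites by distance between the centres in bins of 25 bp, with the 175 sites of CEBPG score 100 or more in blue and the 40 weaker ones in orange, which fill most of the right tail.

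Most paired sites had no other paired site within 100 kb. How this spacing compares with that of randomly placed sites was not tested. The distance to the next paired site had a median of 2861 kb, and 18 of 215 sites (8.37%) had another within 100 kb. These 18 formed 9 runs of 2, and no run held more. At 2 of the runs the members were CEBPG peaks under 1 kb apart that shared 1 ATF4 peak, so they are not separate pairs. One was next to Plpbp, a pyridoxal phosphate binding protein gene (CEBPG scores 65.27 and 747.31, 0.248 kb apart). The other was 593 kb from Arpp21 (78.46 and 64.85, 0.176 kb apart). The 215 sites therefore rest on 213 ATF4 peaks.

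The remaining runs spanned 21.5 to 69.7 kb. The shortest lay between 1600014C23Rik and Vegfa, with CEBPG scores of 1270.5 and 3100. Together with a site nearest Mrps18a (307.14, 41.6 kb from Vegfa), 3 paired sites had Vegfa as the farther of their flanking genes. At Hspa5, the gene of the endoplasmic reticulum chaperone BiP, a site 1.83 kb from the gene (CEBPG 3100, ATF4 87.43) was followed 32.0 kb on by one next to Rabepk (382.64 and 43.92). Antxr2, an anthrax toxin receptor gene, had sites 16.6 and 49.8 kb away (1539.6 and 2033.47). The others stood between Plcb1 and Plcb4 (421.9 and 1849.97), and between Gm40363 and Pdia4 (73.16 and 657.98).

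A further 2 runs lay in families of tandem gene copies. One had sites at Prl3d1 and Prl3d3 of the prolactin family (376.46 and 336.77, 67.9 kb apart). The other had sites at Sprr2a1 and Sprr2a3 of the small proline-rich proteins (528.7 and 633.42, 69.5 kb apart), 3.59 and 3.55 kb from the 2 genes. Reads of 36 bp can fit more than 1 copy in such families, and no source used here says how these were placed. The count of sites at each copy is therefore uncertain. The same limit may apply to single sites beside other gene families, such as those nearest Mup18, Olfr1450 and Zfp978.

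Paired sites are themselves CEBPG peaks, so another CEBPG peak can never lie farther from a site than another paired site does. Another CEBPG peak of any score lay within 10 kb of 75 sites (34.9%, 28.5 to 41.7%) and within 100 kb of 192 (89.3%). The share within 10 kb was 25.7% (25 to 26.4%) for CEBPG peaks away from genes without ATF4 and 35.6% (28.8 to 42.7%) for those with a score of 500 or more. Strong CEBPG peaks are those with a score of 500 or more. Another of these lay within 10 kb of 4 sites (1.86%) and within 100 kb of 27 (12.6%, 8.44 to 17.7%). For strong unpaired peaks away from genes the latter value was 13.9% (9.38 to 19.6%). Next to Hspa9, the mitochondrial HSP70, and at the Gm40363 site, 11 other CEBPG peaks lay within 100 kb, the most around any paired site. The next ATF4 peak outside the pair was a median of 293 kb away.

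Distance to genes spanned 3 orders of magnitude. The median was 41.7 kb (29.2 to 57.6) and the quartiles 8.63 and 179 kb. With all gene types counted the median was 16.1 kb, and for sites with both scores at least 100 it was 22.4 kb. CEBPG peaks away from genes without ATF4 had a median of 107 kb (103 to 112), and those with a score of 500 or more 48.2 kb (35.0 to 65.9). Between 1 and 5 kb from a gene lay 35 paired sites (16.3%, 11.6 to 21.9%), against 6.95% (6.53 to 7.38%) of all unpaired peaks away from genes and 6.70% (3.62 to 11.2%) of the strong ones. From 5 to 20 kb there were 47 sites (21.9%), from 20 to 100 kb 56 (26.0%), from 100 to 500 kb 65 (30.2%), and over 500 kb 12 (5.58%). Median CEBPG scores in these 5 classes were 775.61, 788.87, 1034.93, 750.9 and 434.38. Over all sites the median score thus showed no steady order with distance. For the 131 sites with a CEBPG score of 500 or more the medians were 1976.88, 1560.97, 1276.12, 1427.02 and 1172.18, the last from 6 sites. These were highest nearest to genes and lowest beyond 500 kb, which was not tested. Just inside the limit of 1 kb were the sites at Slc20a1 (1.05 kb), Fam229b (1.16 kb) and Sqstm1 (1.24 kb). Just outside it were pairs 996 bp from Fgf21, a stress-induced hormone gene, 661 bp from Stk40 and 643 bp from Taf15.

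A gene desert is taken here as a stretch of at least 500 kb between neighbouring protein-coding genes. There were 711 of these, holding 50.4% of the 1623 Mb of sequence more than 1 kb from genes. Of the paired sites 75 lay in deserts (34.9%, 28.5 to 41.7%). With noncoding genes and pseudogenes counted as genes too, in the choice of sites as well as in the stretches, the share was 1.16%, so these deserts are empty of protein-coding genes only. Of the unpaired CEBPG peaks away from genes it was 54.1% (53.2 to 54.9%), close to the share of sequence, and of those with a score of 500 or more 34% (27.4 to 41.2%). The intervals of the paired sites and the strong unpaired peaks overlapped, and both lay below that of all unpaired peaks.

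**Figure D4:**
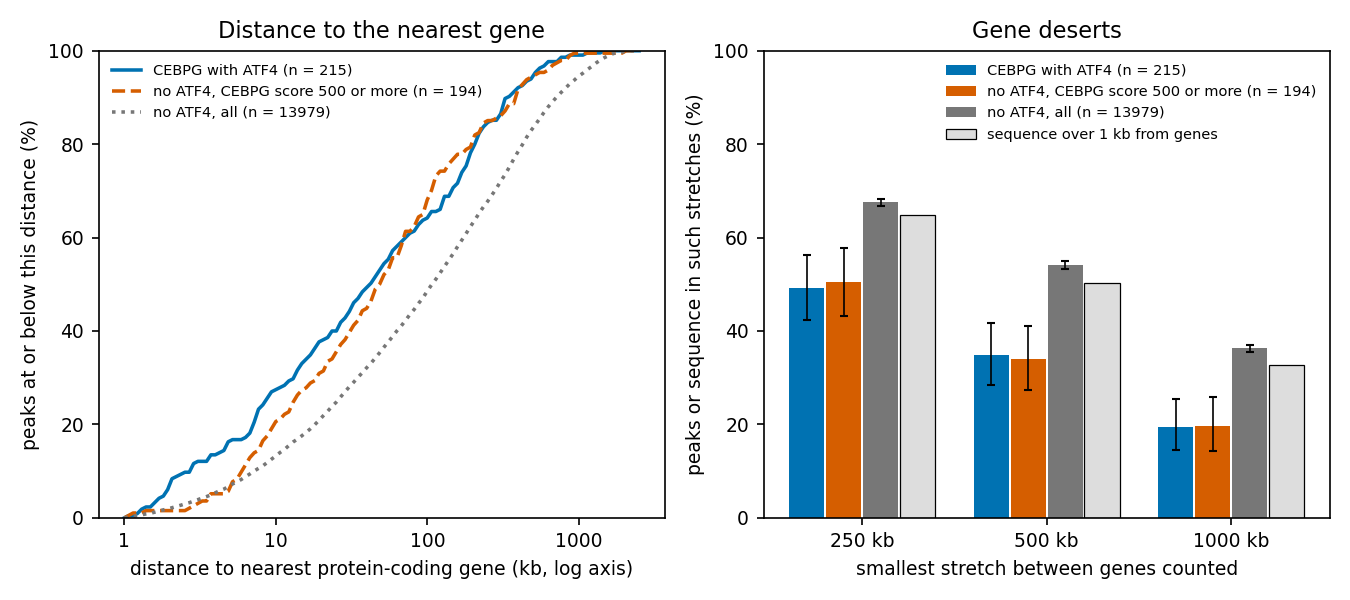
Left, percent of peaks (vertical axis) at or below a given distance to the nearest protein-coding gene (log axis, kb) for the 215 paired sites, the 194 strong unpaired peaks and all 13979 unpaired peaks away from genes. Right, percent of each set, and of the sequence over 1 kb from genes, in stretches of at least 250, 500 and 1000 kb, with exact 95% binomial intervals. At 500 kb the values are 34.9%, 34%, 54.1% and 50.4%.

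The 75 desert sites stood in 68 different deserts. Their median CEBPG score was 677.17, and that of the 140 other sites was 911.73. ATF4 medians were 58.53 and 62.45. At 12 sites the nearest gene was over 500 kb away on either side, while 13 desert sites were within 100 kb of one flanking gene. At the other extreme, 44 sites (20.5%) stood in stretches under 50 kb, and the smallest stretch with a site was 4.17 kb.

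The most isolated sites were 2 in the 2.95 Mb between Nmbr and Cited2, a transcriptional coregulator gene. They lay 1420 kb (chromosome 10, 16302584 to 16303003) and 1086 kb (16636916 to 16637482) from Cited2. CEBPG scores were 247.83 and 342.29 and ATF4 scores 45.59 and 58.53. The third, 869 kb from Ttll7, a tubulin-modifying enzyme gene (chromosome 3, 147853008 to 147853725), scored 1035.33 and 49.12. The fourth, 746 kb from Nr2f1, an orphan nuclear receptor gene, scored 1309.04 and 80.89 in a desert of 2.68 Mb. Next came a weak site 726 kb from Pcdh9 (44.95 and 45.65) and the pair of peaks near Arpp21.

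Myc, the growth-control transcription factor gene, was the nearest gene to a site 579 kb away (chromosome 15, 62569180 to 62569975), with scores of 2598.39 and 127.58 and centres 2 bp apart. A second, weak site stood 421 kb from it on the same side (50.3 and 77.46). On the opposite side of Myc, a site nearest A1bg had Myc as its farther flanking gene, 676 kb away (731.54 and 49.44). The last of the 10 were 523 kb from Serpinb8 (1346.3 and 64.46) and 522 kb from Nedd1 (677.17 and 99.25). The latter overlapped the long noncoding gene Rmst. Of these 10 most isolated sites, 4 had a CEBPG score of 1000 or more.

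The phrase away from genes covers protein-coding genes only. At 39 of the 215 sites (18.1%, 13.2 to 24.0%) the CEBPG peak overlapped the span of a noncoding gene, which was a long noncoding RNA gene at 37. For unpaired CEBPG peaks away from genes the share was 14.8% (14.2 to 15.4%), and for the strong ones 19.6% (14.3 to 25.9%). One such site overlapped Trp53cor1, a long noncoding RNA gene known to respond to p53. The site lay 12 kb from Cdkn1a, the gene of a cyclin-dependent kinase inhibitor. It scored 3033.27 for CEBPG and 173.28 for ATF4 (chromosome 17, 29078686 to 29079345). Another overlapped the Fgf2 antisense gene Fgf2os (171.24 and 53.35), 18.3 kb from Fgf2. The site 2.0 kb from Cnot11 overlapped Snord89, a small nucleolar RNA gene.

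The 215 sites had 208 different nearest genes, which is 0.95% of the 21887 protein-coding genes. Of 289 genes in 12 lists, 21 (7.27%) were nearest to a paired site, while 148 (51.2%) were nearest to an unpaired CEBPG peak away from genes and 7 (2.42%) to a strong one. Over all protein-coding genes these last 2 shares were 21.5% and 0.836%. No enrichment, and no difference between lists, was tested. Mesenchymal and patterning factors gave 9 of 46, where 40 were nearest to an unpaired peak away from genes. The list of stress response regulators, which also holds the lipoprotein receptor gene Vldlr, gave 4 of 25, with 11 nearest to an unpaired peak. Extracellular matrix genes gave 4 of 33, with 23. Amino acid transporters, aminoacyl-tRNA synthetases, bZIP factors and clock genes gave 1 each, of 19, 20, 30 and 15. Amino acid synthesis (20 genes), growth factors and cytokines (33, of which 29 were nearest to an unpaired peak), neuronal, blood cell and hepatocyte genes (16 each) gave 0. A count of 0 of 20 means only that no gene of the list was nearest to a site outside genes.

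**Figure D5:**
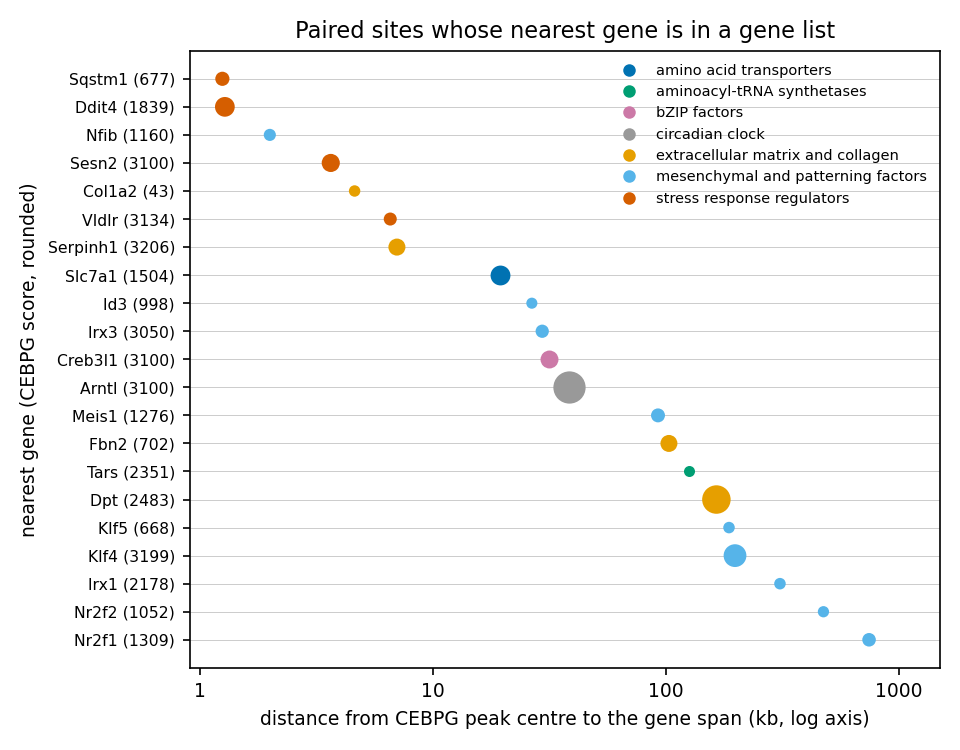
The 21 paired sites whose nearest gene belongs to a list, placed by distance from the CEBPG peak centre to the gene in kb on a log axis, with the rounded CEBPG score beside each gene name. Colour gives the list and the area of a point grows with the ATF4 score. The 4 genes shown from the stress response list sit within 10 kb, as do 27.4% of all 215 sites. List genes that were only the farther flanking gene, such as Vegfa, are not shown. Of the 9 patterning factors 8 sit more than 20 kb away, as do 133 of all 215 sites.

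The stress response list gave 4 nearest genes, including the lipoprotein receptor gene Vldlr, with sites 1.24 to 6.55 kb away. Vegfa, also on this list, was the farther flanking gene of sites 41.6, 143 and 165 kb away. Within 10 kb of a gene lay 27.4% of all 215 sites. At Ddit4, an inhibitor of mTORC1, the site was 1.28 kb from the gene (chromosome 10, 59952736 to 59953356, CEBPG 1838.78, ATF4 199.36). At Sqstm1, the autophagy receptor p62, it was 1.24 kb away (676.73 and 90.93). The Sesn2 and Vldlr sites, described above, lay 3.64 and 6.55 kb out. Among supply genes, Slc7a1, a cationic amino acid transporter, had a site 19.4 kb away (chromosome 5, 148419000 to 148419664, 1503.93 and 202.03). Tars, threonyl-tRNA synthetase, had one 125 kb away with discordant scores (2350.76 and 45.06). Psat1, a serine synthesis gene, was a farther flanking gene of the Tle4 site at 1250 kb.

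Patterning factors had sites from 1.99 to 746 kb away, 6 of them farther and 3 nearer than the median of all sites (41.7 kb). Besides Klf4 and Nr2f1, sites had as nearest genes Irx3 (29.4 kb, CEBPG 3050.5, ATF4 76.38) and Irx1 (309 kb, 2177.85 and 51.89), Iroquois homeobox genes, and Meis1 (92.5 kb, 1276.12 and 87.16), a TALE homeobox gene. Nr2f2, a relative of Nr2f1, was 475 kb away (1052.49 and 48.28). Klf5 stood at 187 kb (667.69 and 51.68), Id3, an inhibitor of helix-loop-helix factors, at 26.6 kb (997.63 and 45.99), and Nfib, a nuclear factor I gene, at 1.99 kb (1160.37 and 59.8). Klf4 alone among these 9 had an ATF4 score of 100 or more, against 52 of all 215 sites.

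Of the matrix genes, Fbn2, encoding a fibrillin, was 103 kb from its site (701.77 and 140.97). Col1a2, a fibrillar collagen gene, was 4.60 kb from a weak one (43.05 and 50.52). With the farther flanking gene counted as well, 33 sites (15.3%) had a list gene on one side or the other.

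Every autosome and the X chromosome held paired sites, from 3 on X to 18 on chromosome 3. As a share of CEBPG peaks away from genes, autosomes ranged from 1.12% on chromosome 6 to 2.61% on chromosome 9 (16 of 612), and X had 1.60%. On chromosome Y, 0 of 11 were paired, which at this number of peaks says nothing about a difference.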

How the data were processed

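Per the submitters' processing notes, reads were processed with Trimmomatic, BWA, MACS 1.4.2 and HOMER on mm10, with no settings given. The deposited peak lists, 1 per library, give positions and, at the end of each peak name, a score. These authors' scores start at 40, their scale and any ceiling are not stated, and read depth is unknown. Positions are printed 1-based. Peak centres were paired on the same chromosome, and gene spans came from the RefSeq table of GRCm38.p6, the build of mm10, without strand or exons. All 289 list genes were matched, 2 by synonym. No genome was used here, so the planned motif counts were made only in RefSeq promoter windows under a site.

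The members and lists were chosen with earlier results of these data known. Named sites are the 10 highest by each score (CEBPG ties taken in order of ATF4 score), the 10 farthest from genes, the 5 lowest and 5 widest, those beside each limit, the runs and those nearest a list gene. Others were chosen after their values were seen. Python 3.11.15, pandas 2.3.3 and scipy 1.17.1 were used. The site rule was tested on simulated data.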

Additional observations from a re-analysis of the deposited data

How the results depend on the processing

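Of 56 recalculations of 6 values under other settings, 42 stayed within the interval of the reported value (for the number of sites, within 1.5 times). These include the setting without peaks wider than 1 kb, which could remove no paired site because none had so wide a peak. With both scores at least 50, the median CEBPG score was 1195.85, the median ATF4 score 75.86 and the share of CEBPG peaks paired 2.75%. With both at least 100, there were 52 sites with medians of 2123.99 and 141.72, a median distance to genes of 22.4 kb and a share of 3.61%. Centres within 100 bp gave a share of 1.24%. Beyond 5 kb from genes the median distance was 63.4 kb. With all gene types counted, it was 16.1 kb, and 1.16% of sites lay in deserts. Deserts of at least 250 kb held 49.3% of sites and those of at least 1 Mb held 19.5%. The alternatives for the motif window were not run, because no genome was used here. No paired analysis was possible because there is 1 library per antibody.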

Other observations

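A few other genes beside paired sites are given as values. They were picked after the values were seen, with no list, count or background behind them. The site nearest Psmc6 (CEBPG 3100, ATF4 159.56) had Ero1a, an oxidase of the endoplasmic reticulum, as its farther flanking gene at 7.11 kb. The site nearest Tbc1d31 (3100 and 136.08) had Derl1, which acts in the export of misfolded proteins, on its farther side at 14.5 kb. Pdia4, a protein disulfide isomerase gene, was 7.10 kb from a site of 657.98 and 93.03. The chaperone genes Hsp90aa1 and Hspa9 were 7.21 kb (498.6 and 53.1) and 4.26 kb (1797.63 and 47.92) from theirs. Trp53inp1, a p53-inducible gene, was 8.55 kb from a site of 950.87 and 128.81, and Pmaip1, a BH3-only cell death gene, 7.57 kb from one of 621.31 and 47.92.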
